A study of Mus musculus with 24 samples.

Results

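OGT knockout (KO) and wild-type (WT) macrophages were compared across 3 activation states at once, as the mean of the 3 KO minus WT differences in log2 expression. All 24 libraries of the series enter this averaged contrast. Each of the 6 groups holds 4 libraries of C57BL/6J bone marrow-derived macrophages from mice aged 12 weeks. The KO groups are unstimulated cells (M0), cells given LPS at 100 ng/ml and cells given IL-4 at 10 ng/ml, both for 12 hours, and the 3 WT groups had the same treatments. Genes were then sorted by whether they differed with the same sign in every state or in a state-specific way: 1225 genes of 14693 tested fell in the first class and 1122 in the second. The labels do not name the deleted part of the gene, the way the deletion was made, its cell specificity or the number of mice, so a p-value reflects only how far these libraries spread, which may be technical. A library is named by the number in its code, 5 to 8 in KO and 1 to 4 in WT, which recurs in the 3 states of a genotype.

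OGT is the single enzyme of nucleus and cytosol that attaches O-linked N-acetylglucosamine (O-GlcNAc) to serine and threonine residues of proteins, and the O-GlcNAcase gene, Mgea5 in these files, encodes the enzyme that removes it. The donor sugar is made by the hexosamine pathway from glucose, glutamine, acetyl-CoA and UTP. Lipopolysaccharide (LPS) drives macrophages towards a proinflammatory programme through Toll-like receptor 4, and IL-4 drives an alternative programme through STAT6.

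Gene counts ranged from 63429271 to 94942464 in 21 libraries, whereas KO LPS library 7 and WT LPS libraries 1 and 2 held only 172771 to 209368. Where a deep library has 0 counts, up to 0.0303 to 0.055 CPM (scaled counts per 1000000) remain possible, against 15.5 to 17.9 CPM in a shallow one, so genes below that level are not resolved there. These bounds hold counting error alone. The macrophage markers Adgre1, Csf1r, Cd68, Itgam, Fcgr1, Mertk and Lyz2 were detected in every group. Their summed level was 7150 to 8880 CPM in KO and 11600 to 13200 CPM in WT M0 libraries. It was 7850 to 9670 CPM in KO and 14300 to 14800 CPM in WT LPS libraries. In IL-4 it was 4910 to 5180 CPM in KO and 5520 to 6150 CPM in WT libraries. Much of the sum is Lyz2, the most abundant of them. Its group means were 5086 CPM in KO and 9307 CPM in WT M0 cells. They were 3700 and 8314 CPM in LPS and 2353 and 3231 CPM in IL-4. The markers did not fall together: of 7, 3 were higher and 4 lower in KO on average. On the third principal component of the 21 deep libraries KO libraries 5 and 6 scored 2.66 to 6.54, KO libraries 7 and 8 scored 7.52 to 11.2 and WT libraries scored -10.3 to -4.49, so leading counts are also given without either KO pair. Fewer cells of a type and less RNA per cell cannot be told apart in such bulk samples.

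KO libraries held less Ogt mRNA in every state. Its level was 34.5, 34.6, 36.9 and 35.8 CPM in KO M0 cells, against 47.3, 51.3, 47.4 and 52.4 CPM in WT M0 cells. It was 34.2, 37.6, 53.8 and 37 CPM in KO LPS cells, against 56.7, 68, 55 and 57.2 CPM in WT LPS cells. It was 34.8, 31.9, 33.6 and 32.8 CPM in KO IL-4 cells, against 49.2, 53.1, 56.9 and 58.2 CPM in WT IL-4 cells. No KO value reached a WT value of its state, and the highest KO value came from the shallow LPS library 7. The averaged log2 difference was -0.61 ± 0.036 (SE, adjusted p = 1.47e-12), and the test of its variation between states gave an adjusted p of 0.134 (edgeR, 2 degrees of freedom). An exact permutation test over label numbers gave p = 0.0286 for Ogt, the smallest value it can give. Reads outside the deleted part would not show the deletion, and that part is not given in the labels. Ogt lies on chromosome X at 101640011 to 101684351 (GRCm38).

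The gene of the opposing enzyme moved the same way: Mgea5 had an averaged difference of -0.43 ± 0.035 (SE, adjusted p = 3.53e-10), with -0.47 ± 0.055 in M0, -0.35 ± 0.069 in LPS and -0.47 ± 0.055 in IL-4. Its KO and WT values did not overlap in M0 and IL-4, and overlapped in LPS. The exact permutation test over label numbers gave p = 0.0571 for Mgea5. The list of O-GlcNAc enzymes and hexosamine pathway genes had 14 tested members, of which 4 averaged higher and 2 lower in KO, near the shares over all genes (26.4% and 23.8%), and Gfpt1, the rate-limiting enzyme of the hexosamine pathway, was called higher in every state with an averaged difference of 0.35 ± 0.049 (SE, adjusted p = 2.49e-06). Rps6kb1, the gene of the kinase S6K1, averaged 0.13 ± 0.049 (SE, adjusted p = 0.0278), was called in no single state, and lost its averaged call under DESeq2 (adjusted p = 0.149), with the 8 number means over 3 states or over M0 and IL-4 (adjusted p = 0.259 and 0.0509), without KO numbers 7 and 8, and without WT number 1, 2, 3 or 4 or KO number 8.

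The averaged contrast called 7368 of 14693 genes, or 50.1%: 3873 were higher in KO (26.4%) and 3495 lower (23.8%). The differences were small for most of them, with 321 genes at least 2-fold higher and 60 at least 2-fold lower. Of the called genes, 6184 (83.9%) had the same sign in the 3 states, against 1785 of the 7325 genes not called (24.4%). The call rests on the mean of the same 3 differences, so this contrast follows in part from the call and is a description. A total of 916 genes (6.23% of those tested) were called on average and in no single state. Counting each label number once, as its mean over the 3 states, gave 8 values a gene and called 477 higher and 344 lower genes by limma. The same means over M0 and IL-4 alone called 2618 higher and 2904 lower genes. With label number as a random block, the averaged contrast called 3100 higher and 3142 lower genes. Without KO numbers 5 and 6 the averaged contrast called 3646 higher and 3969 lower genes, and without KO numbers 7 and 8 it called 3827 and 3608.

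Single-state tests called 1738 genes higher in KO (11.8%) and 1541 lower (10.5%) in M0, 2384 (16.2%) and 2150 (14.6%) in LPS, and 2632 (17.9%) and 2675 (18.2%) in IL-4. The KO minus WT difference varied between the 3 states for 2025 genes (13.8%), and for 3936 genes with label number as a random block. A stricter class holds genes called in each state separately with 1 sign. It had 596 genes higher in KO (4.06% of those tested) and 629 lower (4.28%), together 8.34%. Their median averaged differences were 0.50 for the higher and -0.41 for the lower genes, against 0.016 over all genes tested, and the class rule fixes these signs. The median of the higher genes was 0.42 in M0, 0.56 in LPS and 0.52 in IL-4, and that of the lower genes was -0.32, -0.48 and -0.41 in the same order. The largest difference of a gene fell in LPS for 674 of the 1225 genes, in IL-4 for 388 and in M0 for 163. LPS holds the 3 shallow libraries, and its standard errors can be larger, as for Cd5l (0.14 against 0.10 in M0). A gene with a larger standard error needs a larger difference to be called in LPS. How far the larger LPS sizes in this class follow from its rule was not tested. The size of the difference varied between states for 172 of them (14%) and not detectably for 1053. With a 0 in a shallow library taken as a value, KO and WT values did not overlap in any state for 306 higher genes (2.08% of those tested) and 262 lower genes (1.78%), and 413 of these genes belonged to the class. In single states the share of all genes without overlap was 27.1% in M0, 12.9% in LPS and 37.1% in IL-4. At least a 2-fold averaged difference was seen for 103 higher and 19 lower genes. Leaving out WT number 4 brought the higher genes of this class to 272, and leaving out WT number 3 brought them to 294. The class held 704 higher and 903 lower genes without KO numbers 5 and 6, and 682 and 634 without KO numbers 7 and 8.

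**Figure D1:**
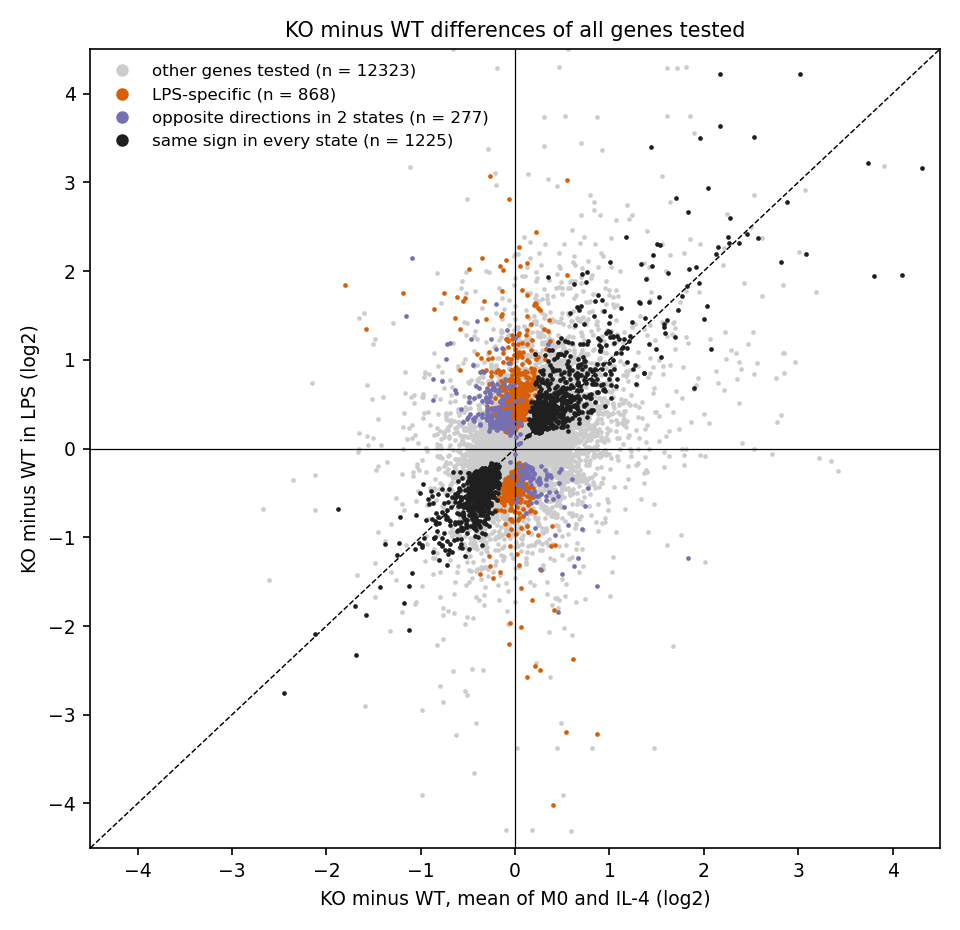
KO minus WT log2 difference in LPS (vertical axis) against the mean of the M0 and IL-4 differences (horizontal axis) for each of 14693 genes, coloured by class, with the dashed line marking equal values and 35 genes lying outside the axes. The 1225 genes called with 1 sign in every state lie along the dashed line, the 868 LPS-specific genes lie along the vertical axis, and most of the 277 genes called in opposite directions in 2 states lie in the upper left and lower right.

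Surface receptors and a secreted protease of macrophages were among the 10 named genes lower in KO in every state. Mmp9, a gelatinase that cleaves extracellular matrix, had the lowest averaged difference of all genes tested. Its level was 5.51, 5.5, 3.88 and 3.7 CPM in KO M0 cells, against 41.3, 26.9, 41.4 and 26.5 CPM in WT M0 cells. It was 25.1, 26.1, 17.9 and 28.2 CPM in KO LPS cells, against 114, 131, 188 and 188 CPM in WT LPS cells. It was 4.21, 4.41, 2.85 and 4.02 CPM in KO IL-4 cells, against 17, 16.3, 13.7 and 16.6 CPM in WT IL-4 cells. All KO values lay below all WT values of the same state, and LPS cells had the highest level in both genotypes. The averaged log2 difference was -2.55 ± 0.096 (SE, adjusted p = 2.42e-16), and the state differences were -2.86 ± 0.16 in M0, -2.75 ± 0.18 in LPS and -2.04 ± 0.16 in IL-4.

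Ccr1, a receptor of inflammatory CC chemokines, was 28, 25.5, 25.6 and 25.8 CPM in KO M0 cells, against 68.6, 72.3, 63.3 and 69.1 CPM in WT M0 cells. In LPS its level was 22.3, 22.2, 12 and 19.5 CPM in KO LPS cells, against 30.9, 47.1, 44.3 and 45.1 CPM in WT LPS cells. In IL-4 it was 48.6, 41.9, 49.2 and 43.4 CPM in KO IL-4 cells, against 102, 101, 87.7 and 94.3 CPM in WT IL-4 cells. The groups did not overlap in any state, and the averaged difference was -1.17 ± 0.041 (SE, adjusted p = 5.06e-17). Cx3cr1, the fractalkine receptor of monocytes and macrophages, was 102, 97.6, 112 and 106 CPM in KO M0 cells, against 238, 231, 248 and 226 CPM in WT M0 cells. It was 24.4, 22.3, 23.9 and 46.1 CPM in KO LPS cells, against 61.9, 183, 139.8 and 116 CPM in WT LPS cells, and KO library 8 stood above the other KO LPS libraries. It was 2.24, 2.49, 2.58 and 2.52 CPM in KO IL-4 cells, against 6, 6.02, 3.35 and 5.32 CPM in WT IL-4 cells. Again no group overlapped, and the averaged difference was -1.43 ± 0.11 (SE, adjusted p = 9.58e-11), with its largest size in LPS (-2.04 ± 0.20).

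Gpr84, which senses medium-chain fatty acids, was at a higher level in LPS than in M0 cells: 361 to 490.4 CPM in KO and 609 to 709 CPM in WT LPS libraries, and 4.5 to 6.84 CPM in KO and 14.7 to 26 CPM in WT M0 libraries. Its averaged difference was -1.48 ± 0.11 (SE, adjusted p = 8.21e-11), and the difference was smaller in LPS (-0.68 ± 0.17) than in M0 (-1.83 ± 0.17) or IL-4 (-1.93 ± 0.22). Siglece, an inhibitory receptor for sialic acids, averaged -1.47 ± 0.15 (SE, adjusted p = 2.38e-08) and was at 61.1 to 95.3 CPM in KO and 223 to 289 CPM in WT LPS libraries. Itgal, the alpha subunit of the integrin LFA-1, averaged -1.07 ± 0.12 (SE, adjusted p = 1.37e-07) and was at 406 to 507 CPM in KO and 629 to 863 CPM in WT LPS libraries. The remaining 4 named genes were H2-Ke6, a dehydrogenase gene of the MHC region, at -1.09, Tmem221 at -1.03, G530011O06Rik at -1.02 and Pilrb2, a paired immunoglobulin-like receptor, at -0.98. Pilrb2 has a close paralogue, Pilrb1, so the assignment of its reads is uncertain. Siglece and Pilrb2 were under 1 CPM in every IL-4 library, so their IL-4 differences rest on low counts.

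Lyz2, which encodes the lysozyme of mouse macrophages, was lower in KO in every state. Its level was 5629, 5103, 4695 and 4916 CPM in KO M0 cells, against 9855, 9511, 9393 and 8470.0 CPM in WT M0 cells. It was 3662, 3640.0, 3522 and 3974 CPM in KO LPS cells, against 8685, 8155, 8260.0 and 8156 CPM in WT LPS cells. It was 2183, 2272, 2386 and 2571 CPM in KO IL-4 cells, against 3374, 3485, 2899 and 3165 CPM in WT IL-4 cells. The groups did not overlap, and the averaged difference of -0.83 ± 0.042 (SE, adjusted p = 7.79e-14) covered unequal values of -0.87 ± 0.072 in M0, -1.17 ± 0.074 in LPS and -0.46 ± 0.072 in IL-4 (adjusted p = 0.000161 for a difference between states). Lyz2 and its neighbour Lyz1 are near-identical, and reads shared between them may be split or dropped by the counting.

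**Figure D2:**
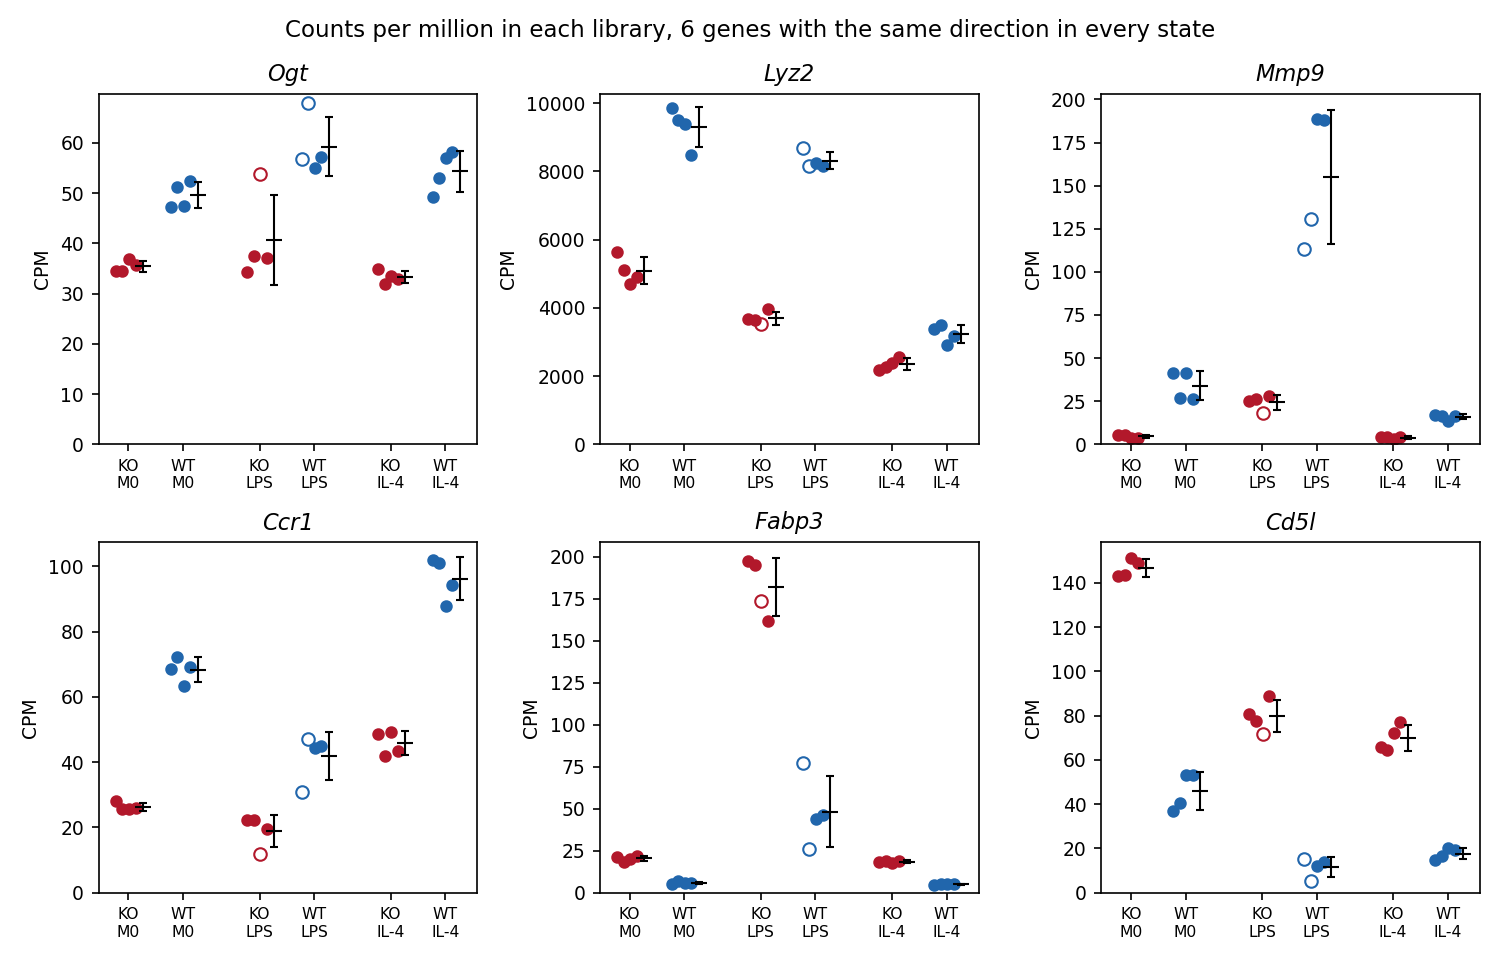
CPM (vertical axis, from 0) of Ogt, Lyz2, Mmp9, Ccr1, Fabp3 and Cd5l in each library, with KO groups (red) left of WT groups (blue) in each state, open circles for the 3 shallow LPS libraries, and bars for the mean and SD of 4 libraries. In every panel and state the 4 KO values lie on 1 side of the 4 WT values.

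The 10 named genes higher in KO in every state included a lipid-binding protein, matrix proteins and a cell-cycle inhibitor. Fabp3, a cytosolic fatty acid-binding protein, was 21.1, 18.3, 20.3 and 22 CPM in KO M0 cells, against 5.49, 6.73, 5.78 and 5.93 CPM in WT M0 cells. It was 197, 195, 173 and 162 CPM in KO LPS cells, against 77.4, 26.1, 43.6 and 46.2 CPM in WT LPS cells. It was 18.1, 19.2, 17.4 and 19 CPM in KO IL-4 cells, against 4.71, 5.07, 4.96 and 4.95 CPM in WT IL-4 cells. KO values exceeded WT values throughout, and LPS cells stood far above the other states in both genotypes. The averaged difference was 1.90 ± 0.051 (SE, adjusted p = 1.89e-19), and the 3 differences lay close together (1.77 ± 0.081 in M0, 2.02 ± 0.098 in LPS and 1.91 ± 0.082 in IL-4).

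Cd5l, a secreted scavenger receptor-family protein of macrophages, was 143, 143, 151 and 149 CPM in KO M0 cells, against 36.9, 40.4, 53.1 and 53.2 CPM in WT M0 cells. It was 81, 77.7, 71.8 and 88.9 CPM in KO LPS cells, against 15.5, 5.23, 12 and 13.9 CPM in WT LPS cells. It was 66, 64.5, 72 and 77.1 CPM in KO IL-4 cells, against 14.8, 16.6, 20.01 and 19.2 CPM in WT IL-4 cells. The groups did not overlap, and M0 cells had the highest level in both genotypes. The averaged difference was 2.11 ± 0.068 (SE, adjusted p = 1.12e-17) and its size varied between states, with 1.68 ± 0.10 in M0, 2.67 ± 0.14 in LPS and 1.98 ± 0.10 in IL-4 (adjusted p = 0.000724).

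Ibsp, the bone sialoprotein gene, averaged 1.83 ± 0.15 (SE, adjusted p = 4.86e-10) and was at 108 to 148 CPM in KO and 43.8 to 54.4 CPM in WT IL-4 libraries. Padi4, an enzyme that converts arginine residues of histones to citrulline, averaged 1.96 ± 0.15 (SE, adjusted p = 1.61e-10) and was at 8.25 to 13.3 CPM in KO and 2.35 to 3.63 CPM in WT M0 libraries. Cdkn1c, an imprinted inhibitor of cyclin-dependent kinases, averaged 1.74 ± 0.18 (SE, adjusted p = 1.79e-08) and was at 19.9 to 32.3 CPM in KO and 7.52 to 11.4 CPM in WT M0 libraries. Pcp4l1 had the largest averaged difference of the named genes, 2.86 ± 0.13 (SE, adjusted p = 1.29e-14). All 3 shallow LPS libraries had 0 counts of Pcp4l1. KO and WT values overlapped in LPS for Pcp4l1, Fndc1, Pianp, H2-Ke6 and G530011O06Rik, and the 20 named genes did not overlap in M0 or IL-4. Padi4, Col8a2 and Ibsp had 0 counts in both shallow WT LPS libraries, Cdkn1c and Prokr1 in 1 of them and Tmem221 in KO LPS library 7, so those libraries do not separate the genotypes for these genes. The matrix genes Fndc1 and Col8a2 averaged 2.15 and 1.89, Pianp, which encodes a ligand of the receptor PILR alpha, averaged 1.67, and the prokineticin receptor Prokr1 averaged 1.58. All 20 named genes of the class kept their averaged call without any 1 label number. With the 8 number means over 3 states, Pcp4l1, Fndc1, Cdkn1c, Pianp, Prokr1, H2-Ke6, Tmem221, G530011O06Rik and Pilrb2 lost it (adjusted p from 0.0523 to 0.22).

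**Figure D3:**
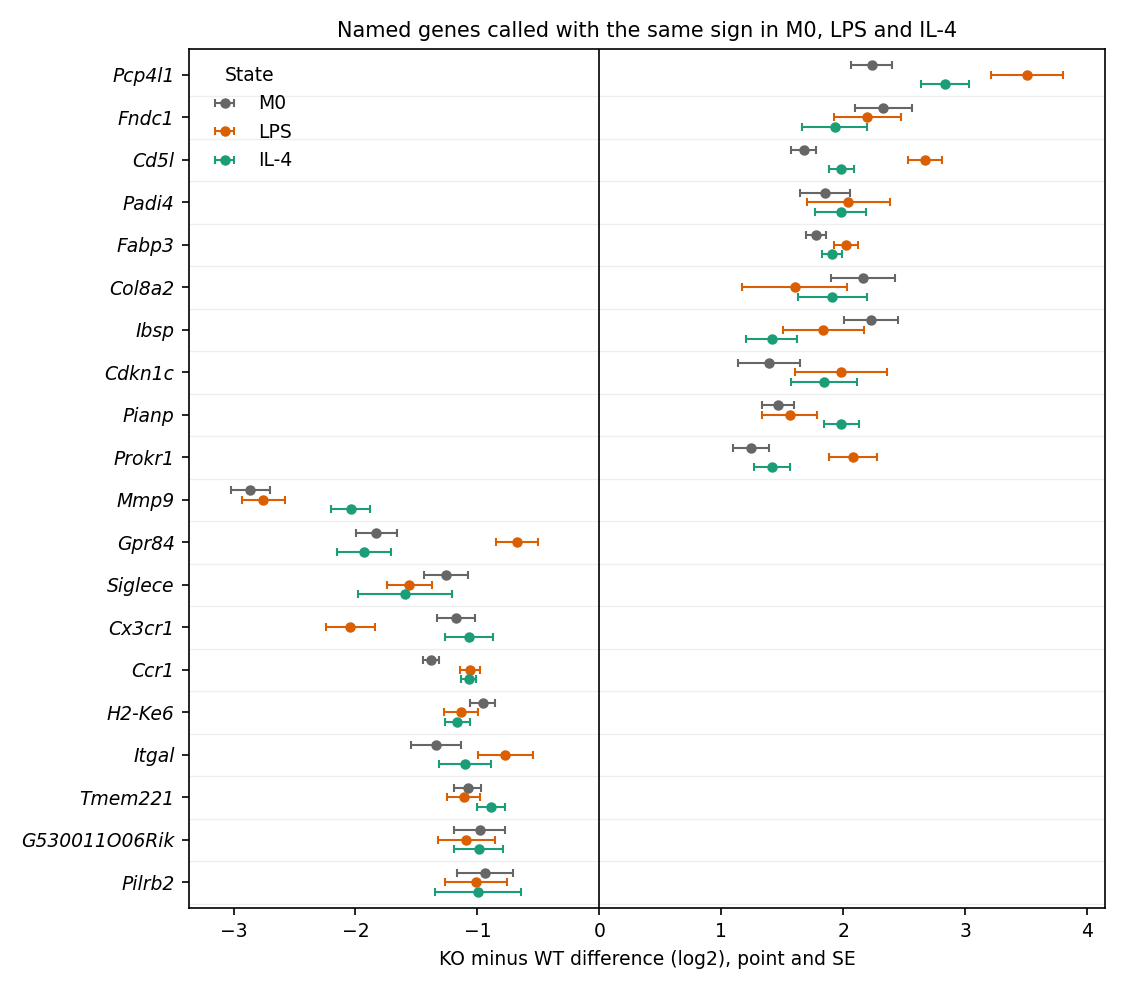
KO minus WT log2 differences with standard errors (horizontal axis) in M0, LPS and IL-4 for the 20 named genes called with 1 sign in every state. Differences of the 10 higher genes lie between 1.25 and 3.51 and those of the 10 lower genes between -2.86 and -0.68, and the 3 states of a gene spread most for Pcp4l1 and Gpr84, followed by Cd5l and Cx3cr1.

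Counts of list members are read against the shares over all genes, which were 26.4% higher and 23.8% lower on average. Mitosis and spindle genes were mostly lower: 29 of 32 were lower in KO on average and none was higher, and 13 were called lower in every state, against 4.28% of all genes. The kinases Plk1 and Aurkb averaged -0.48 ± 0.053 (SE, adjusted p = 5.80e-08) and -0.51 ± 0.061 (SE, adjusted p = 2.49e-07), and Cdc20, an activator of the anaphase-promoting complex, averaged -0.42 ± 0.043 (SE, adjusted p = 2.10e-08). Of 32 DNA replication and S-phase genes, 26 were lower, 1 was higher and 6 were lower in every state. Their median difference was -0.54 in IL-4, -0.20 in LPS and -0.17 in M0, and 17 of the 32 varied between states. The helicase subunits Mcm4 and Mcm5 averaged -0.50 and -0.62, and the replication-coupled methylation factor Uhrf1 averaged -0.48. Mcm4 was at 53.1 to 63.8 CPM in KO and 91.3 to 94.6 CPM in WT IL-4 libraries.

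Targets of ATF4, the transcription factor of the amino acid response, were mostly higher. On average 27 of 39 were higher and 1 lower in KO, with 9 higher in every state against 4.06% of all genes. The list's median was 0.23 in M0, 0.27 in LPS and 0.066 in IL-4, and in IL-4 11 members were called higher and 3 lower. Trib3, a pseudokinase induced by ATF4, was 31.1, 35.8, 39.9 and 40.4 CPM in KO M0 cells, against 20.2, 24.7, 21.4 and 21.1 CPM in WT M0 cells. It was 45, 44.8, 29.9 and 46.9 CPM in KO LPS cells, against 25.8, 10.5, 27.5 and 24 CPM in WT LPS cells, and it was 33.5, 32.5, 35.9 and 36.6 CPM in KO IL-4 cells, against 21.8, 25.4, 20.6 and 21.4 CPM in WT IL-4 cells. The averaged difference of Trib3 was 0.74 ± 0.054 (SE, adjusted p = 5.71e-11). The neutral amino acid transporter Slc1a4 averaged 0.58 ± 0.051 (SE, adjusted p = 2.09e-09), and the lipoprotein receptor Vldlr averaged 0.90 ± 0.048 (SE, adjusted p = 2.05e-13).

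Promoters of both lists are shown because the members moved together, with motifs of ATF4 and of the cell cycle. They come from RefSeq (GRCm38.p6) and run 5′ to 3′ on the gene's strand over 300 bases. Capitals mark TGATGNAA, the core of the C/EBP-ATF response element, in Trib3 (chr2:152344011-152344310, minus strand) and Nupr1 (chr7:126625421-126625720, minus strand), whose averaged differences were 0.74 and 0.66. Capitals mark TTTGAA, the cell cycle homology region, and CCAAT in Plk1 (chr7:122159185-122159484, plus strand) and Ube2c (chr2:164769679-164769978, plus strand), whose averaged differences were -0.48 and -0.44. Letters were matched on both strands, and adjoining matches share 1 run of capitals.
Trib3: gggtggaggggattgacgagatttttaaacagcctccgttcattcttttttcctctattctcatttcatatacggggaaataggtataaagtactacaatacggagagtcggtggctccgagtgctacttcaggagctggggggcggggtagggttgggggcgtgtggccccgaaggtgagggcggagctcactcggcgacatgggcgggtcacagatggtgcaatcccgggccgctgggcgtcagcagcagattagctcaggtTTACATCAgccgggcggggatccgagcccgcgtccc
Nupr1: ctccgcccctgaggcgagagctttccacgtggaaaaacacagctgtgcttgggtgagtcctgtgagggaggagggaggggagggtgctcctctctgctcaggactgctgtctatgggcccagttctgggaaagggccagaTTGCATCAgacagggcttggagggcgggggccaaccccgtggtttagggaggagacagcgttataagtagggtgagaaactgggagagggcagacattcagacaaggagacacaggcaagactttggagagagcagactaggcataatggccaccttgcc
Plk1: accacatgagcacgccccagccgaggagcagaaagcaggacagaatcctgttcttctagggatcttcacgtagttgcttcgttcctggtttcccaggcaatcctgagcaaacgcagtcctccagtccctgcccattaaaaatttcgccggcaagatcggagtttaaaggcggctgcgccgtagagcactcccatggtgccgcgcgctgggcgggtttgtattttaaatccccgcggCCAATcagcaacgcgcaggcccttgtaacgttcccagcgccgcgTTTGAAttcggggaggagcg
Ube2c: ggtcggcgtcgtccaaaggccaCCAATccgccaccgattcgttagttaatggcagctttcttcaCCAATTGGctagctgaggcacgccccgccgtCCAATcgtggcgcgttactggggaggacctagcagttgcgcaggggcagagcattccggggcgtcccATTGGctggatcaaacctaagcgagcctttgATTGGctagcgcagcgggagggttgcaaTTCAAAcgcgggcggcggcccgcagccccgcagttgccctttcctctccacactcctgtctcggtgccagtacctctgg
TGATGNAA was found in 12 of 32 matched promoters of the ATF4 list (37.5%), against 1096 of 27025 promoters (4.06%). It was in 9 of 23 promoters of called members and in 3 of 9 of the others. TTTGAA was found in 21 of 28 promoters of the mitosis list (75%), against 18.1% of all promoters, and CCAAT in 21 of 28, against 37.9%. The lists were drawn up as ATF4 targets and as mitosis genes, so high shares of these motifs were likely from the start. The shares therefore say nothing of the KO. A match is a description of the letters and not a binding site.

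Lysosomal genes were also mostly higher: 24 of 30 on average, with 1 lower, against 26.4% and 23.8% of all genes, and 8 called higher in every state, against 4.06%. The cathepsin gene Ctsh averaged 0.56 ± 0.038 (SE, adjusted p = 1.43e-11) and was at 488 to 546 CPM in KO and 248 to 291 CPM in WT LPS libraries. The beta-glucuronidase gene Gusb averaged 0.46 and the proton pump subunit Atp6v1a 0.38. Without KO numbers 5 and 6 the list had 16 higher and 2 lower members, and without KO numbers 7 and 8 it had 27 and 2. Among 18 targets of the sterol receptor LXR and fatty acid synthesis genes, 6 were higher and 5 lower, near the shares over all genes. In M0 6 were higher and 1 lower, in LPS 5 and 4, and in IL-4 8 and 0. Called higher in every state were 5 of the 18, against 4.06% of all genes. Those included the lipid transfer protein Pltp (1.34 ± 0.051, adjusted p = 2.81e-16), the cholesterol exporter Abcg1 (0.60 ± 0.041, adjusted p = 2.07e-11) and Mylip (0.50 ± 0.055, adjusted p = 5.44e-08), a ubiquitin ligase for the LDL receptor. Of 25 cholesterol synthesis genes, 11 were lower and 1 higher, among them Mvk (-0.33) and Hsd17b7 (-0.30), and this count was 19 lower and 0 higher without KO numbers 5 and 6 and 7 lower and 6 higher without KO numbers 7 and 8. Hsd17b7 had 0.035 with the 8 number means over 3 states (adjusted p = 0.937).

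Over all genes 23.8% were lower and 26.4% higher on average. ER chaperones and unfolded protein response genes were lower in 10 of 22 cases and higher in 1, with Hyou1 at -0.30, Manf at -0.34 and Sdf2l1 at -0.38. Of 32 mitochondrial respiratory chain and TCA cycle genes, 10 were lower, not far from the share over all genes, and 3 higher. The complex I subunit Ndufv1 averaged -0.44 ± 0.035 (SE, adjusted p = 2.69e-10), fumarase Fh1 -0.36 and citrate synthase Cs -0.35. Of 21 p53 targets, 9 were higher and 3 lower, and Gadd45b, a growth arrest and stress gene, was higher in every state with an averaged difference of 0.74 ± 0.056 (SE, adjusted p = 1.12e-10), Plk2 averaged 0.70 and the death receptor Fas 0.36. Fas was called in LPS (1.03 ± 0.11, adjusted p = 1.47e-07) and not in M0 (0.071 ± 0.089, adjusted p = 0.615) or IL-4 (-0.032 ± 0.089, adjusted p = 0.814).

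Of 30 insulin, PI3K and mTOR-S6K signalling genes, 11 were higher and 6 lower, against 26.4% and 23.8% of all genes. Without KO numbers 5 and 6 this was 9 higher and 12 lower. The insulin receptor substrate Irs1 averaged 0.64 ± 0.067 (SE, adjusted p = 2.97e-08), and the kinase genes Rps6ka1 and Pik3cg averaged -0.67 ± 0.056 (SE, adjusted p = 7.05e-10) and -0.36 ± 0.057 (SE, adjusted p = 1.00e-05). Among 24 glycolysis and hypoxia response genes, 11 were higher and 6 lower, with Pfkfb3, an activator of glycolysis, at 0.54, Ero1l at 0.39 and the hypoxia factor Hif1a at 0.31. Of 22 BMP and TGF-beta response genes, 6 were higher, which is near the share over all genes, and 3 lower, with Tgfb1 at -0.44, Tgfb2 at 0.39 and Id1 at -0.84. Matrix metalloproteinases and inhibitors had 7 higher and 6 lower of 17, with Mmp19 (0.48 ± 0.040, adjusted p = 5.78e-10) and Adamts1 (0.53 ± 0.044, adjusted p = 5.78e-10) higher beside the lower Mmp9.

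Macrophage identity genes had 10 higher and 12 lower members of 28, and Cd5l, Ccr1 and Lyz2 were the 3 with the smallest adjusted p. The counts were 5 higher and 16 lower without KO numbers 5 and 6, and 13 and 11 without KO numbers 7 and 8. Osteoclast and cell fusion genes had 4 higher and 4 lower of 15, near the shares over all genes, and the fusion genes Dcstamp, under 2 CPM in every library, and Ocstamp averaged -1.64 ± 0.25 (SE, adjusted p = 7.22e-06) and -1.03 ± 0.16 (SE, adjusted p = 6.80e-06). The Ocstamp difference was called lower in M0 and LPS and was 0.38 ± 0.17 (adjusted p = 0.0897) in IL-4. Of 25 ribosome biogenesis genes, 3 were higher and 10 lower on average, with Utp15 at 0.31, Rrp9 at -0.31 and Bop1 at -0.25. This direction was not shared by the states: 6 were higher and 0 lower in M0, 1 and 6 in LPS, and 1 and 13 in IL-4. The difference varied between states for 13 of the 25, against 13.8% of all genes. Without KO numbers 5 and 6 the same list had 6 higher and 5 lower members, and without KO numbers 7 and 8 it had 1 and 14.

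**Figure D4:**
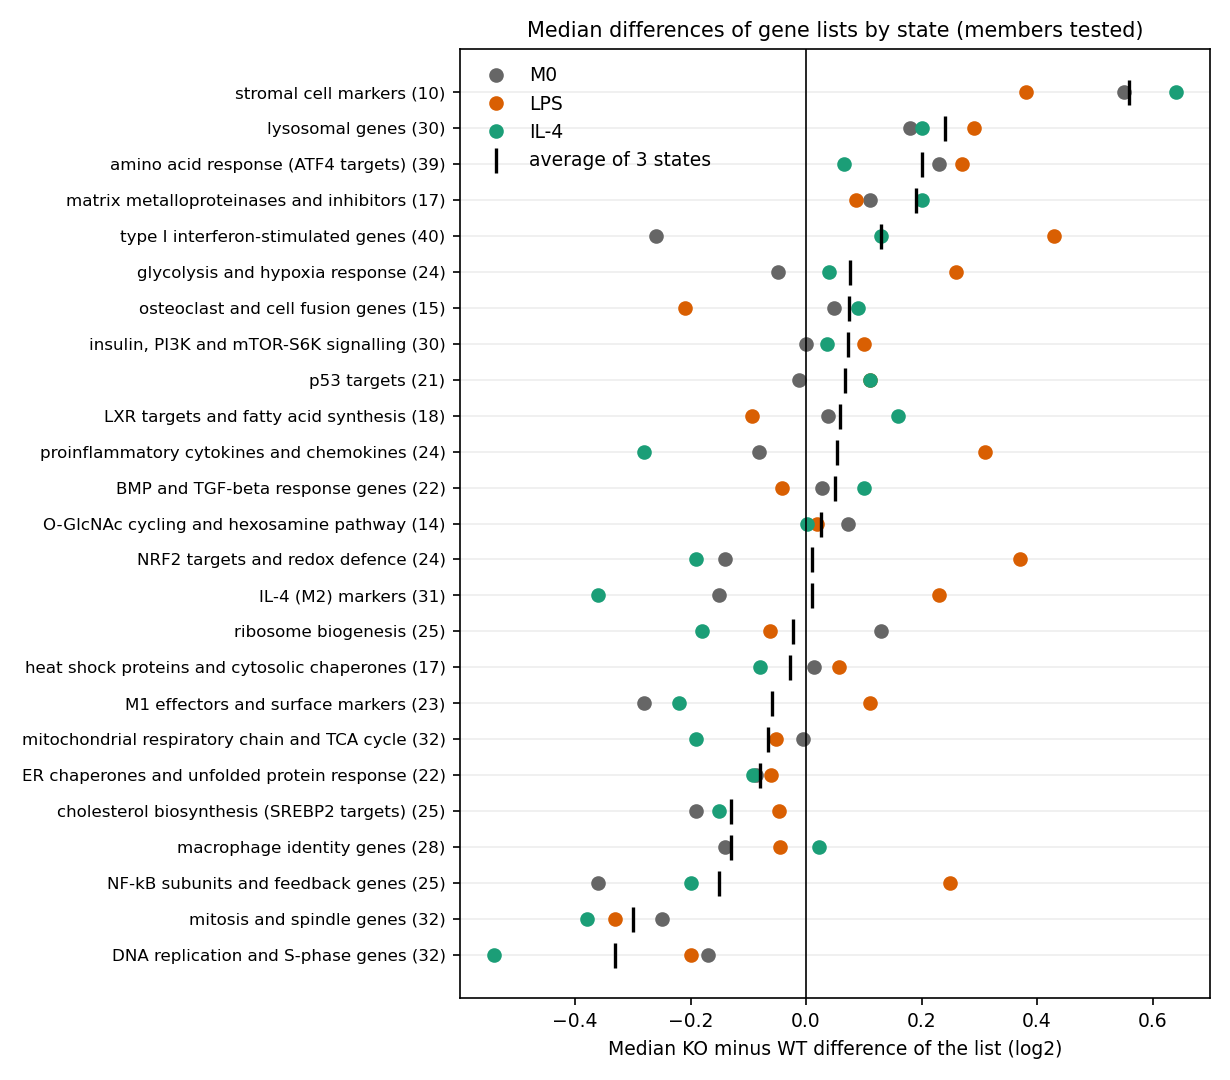
Median KO minus WT log2 difference (horizontal axis) of each gene list in M0, LPS and IL-4 (points) and on average (black ticks), with the number of members tested in brackets. Mitosis, replication, cholesterol, ER chaperone and mitochondrial lists lie below 0 in every state. Lysosomal, ATF4, stromal, metalloproteinase and hexosamine lists lie above 0 in every state. The NF-kB, interferon, NRF2, cytokine, M1, IL-4 marker, glycolysis, p53 and insulin lists have M0 below 0 and LPS above 0.

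Differences between states were tested directly. Of the 2025 genes whose difference varied between states, 1345 were also called on average and 680 were not. This total was 834 without WT number 4, 921 without WT number 3 and 1300 without KO number 6. The difference in a state differed from the mean of the other states for 685 genes in M0 (4.66%), 2040 in LPS (13.9%) and 748 in IL-4 (5.09%). Many genes called in 1 state alone had no called difference from the mean of the other states: 519 of 585 for M0, 950 of 1818 for LPS and 1722 of 1910 for IL-4. State-specific genes were therefore those called in a single state whose difference there also differed from the mean of the other two.

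By that rule LPS had 565 specific genes higher in KO (3.85%) and 303 lower (2.06%), IL-4 had 73 (0.497%) and 115 (0.783%), and M0 had 25 (0.17%) and 41 (0.279%). Each of these counts moved by over 1.5 times without at least 1 label number. Without WT number 4 LPS had 279 higher and 192 lower genes, IL-4 had 36 and 23, and M0 had 10 and 18. Without WT number 3 LPS had 261 and 171, IL-4 had 46 and 43, and M0 had 9 and 17. Without WT number 1 IL-4 had 37 and 51 and M0 had 11 and 24, and without WT number 2 LPS had 456 lower and IL-4 had 65 lower genes. Without KO number 7 IL-4 had 42 and 47 and M0 had 11 higher genes. Without KO number 6 LPS had 150 lower, IL-4 58 lower and M0 12 higher genes, and without KO number 5 M0 had 13 higher genes. The LPS groups hold the 3 shallow libraries, and without those LPS had 595 higher and 294 lower specific genes.

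Acss1, a mitochondrial enzyme that makes acetyl-CoA from acetate, had the smallest adjusted p of the named LPS-specific genes in the test between states (adjusted p = 3.65e-08). Its level was 13.5, 14.8, 17.9 and 18.1 CPM in KO LPS cells, against 0, 0, 3.71 and 2.73 CPM in WT LPS cells. It was 20, 20.4, 16.1 and 16 CPM in KO M0 cells, against 16.4, 16.1, 21.4 and 19.9 CPM in WT M0 cells. It was 35.6, 34.9, 33.3 and 34.1 CPM in KO IL-4 cells, against 29.9, 31.2, 34.6 and 32.1 CPM in WT IL-4 cells. WT LPS libraries 1 and 2 are shallow, and a count of 0 there allows up to 15.5 and 15.7 CPM, so they do not separate the genotypes. The difference in LPS was 2.27 ± 0.16, and 2.27 without the 3 shallow libraries. The genotypes overlapped in M0 (-0.027 ± 0.10). In IL-4 they overlapped as well (0.11 ± 0.10). Hspa1a, the inducible heat shock protein HSP70, was 185, 175, 53.8 and 90.7 CPM in KO LPS cells, against 36.1, 41.9, 34 and 33.9 CPM in WT LPS cells. All KO LPS values lay above the WT values, which the choice of named genes required. The lowest KO value came from the shallow library 7. The Hspa1a difference was 0.23 ± 0.15 in M0, 2.1 ± 0.19 in LPS and 0.024 ± 0.16 in IL-4. Hspa1b, a near-identical copy, averaged 0.58, and reads shared between the copies make both values uncertain.

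Slc40a1, the iron exporter ferroportin, differed by 2.15 ± 0.28 in LPS, with 29.5 to 57.9 CPM in KO and 0 to 11.3 CPM in WT LPS libraries, where the 0 came from shallow library 1, and by -0.40 ± 0.19 in M0 and -0.30 ± 0.20 in IL-4. Clic5, a chloride intracellular channel protein, differed by 3.02 ± 0.24 in LPS and was under 0.4 CPM in every M0 and IL-4 library. The LPS-specific lower genes were the protocadherin Pcdh7 (-1.41 ± 0.22), Spaca6 (-1.31 ± 0.23), the immediate early factor Egr1 (-0.98 ± 0.22) and the kinase Camkk1 (-0.82 ± 0.19). The LPS-specific call of Egr1 ended without WT number 3 or 4 and that of Camkk1 without WT number 3, while the other 6 named genes kept theirs.

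In IL-4 the lower genes were led by Ch25h, the enzyme that makes 25-hydroxycholesterol. Its level was 25.7, 25, 35.2 and 27.8 CPM in KO IL-4 cells, against 68, 64.5, 55 and 53.1 CPM in WT IL-4 cells. The genotypes did not overlap, which the choice of named genes required. The difference was -1.08 ± 0.12 in IL-4, -0.31 ± 0.14 in M0 and 0.0065 ± 0.15 in LPS. The serine hydroxymethyltransferase gene Shmt1 (-0.85 ± 0.11), the DNA polymerase subunit Pole2 (-0.77 ± 0.11) and the centromere gene Cenpm (-0.77 ± 0.13) were also lower in IL-4. The IL-4-specific higher genes were Kif26b (0.94 ± 0.21), Serinc5 (0.72 ± 0.15), the fatty acid desaturase Fads2 (0.69 ± 0.098) and Ttc28 (0.67 ± 0.10). Ch25h, Shmt1, Fads2 and Ttc28 kept the call without any 1 label number, Serinc5 lost it without WT number 3, Cenpm without 3 different numbers, Kif26b without 5 and Pole2 without 7.

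The M0-specific genes were small in effect. Higher in KO were Plcb1 (0.54 ± 0.10), Gpc1, a heparan sulfate proteoglycan (0.46 ± 0.059), the peptidase Dpp7 (0.40 ± 0.056) and sarcosine dehydrogenase Sardh (0.39 ± 0.080). Lower were Mtus1 (-0.59 ± 0.14), the IL-4 receptor subunit Il4ra (-0.58 ± 0.11), the ganglioside synthase St3gal5 (-0.53 ± 0.11) and Rab11fip1 (-0.52 ± 0.099). Il4ra was at 173 to 215 CPM in KO and 272 to 295 CPM in WT M0 libraries. Under DESeq2 at least 1 of the calls behind the state-specific class ended for Plcb1, Dpp7, Sardh and Mtus1 in M0, for Camkk1 in LPS, and for Kif26b, Serinc5, Shmt1, Pole2 and Cenpm in IL-4 (adjusted p from 0.0514 to 0.582). All 8 M0-specific genes lost the M0-specific call without at least 1 label number, which was KO number 6 alone for Gpc1 and any of the 8 numbers for Plcb1.

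A total of 277 genes (1.89%) were called in opposite directions in 2 states, and the average of such a gene can lie near 0. The most frequent pairs were higher in LPS with lower in IL-4 (122 genes), higher in LPS with lower in M0 (85) and lower in LPS with higher in IL-4 (72). Lower in LPS with higher in M0 held 39 genes, and the pairs of M0 and IL-4 held 18 and 5. The total was 117 without WT number 3, 126 without WT number 4 and 177 without KO number 6. Cd33, a sialic acid-binding receptor of myeloid cells, was 8.95, 10.7, 5.98 and 7.95 CPM in KO LPS cells, against 25.8, 15.7, 17 and 16 CPM in WT LPS cells. It was 8.66, 8.81, 10.6 and 9.21 CPM in KO IL-4 cells, against 4.29, 4.41, 5.21 and 5.16 CPM in WT IL-4 cells, and in M0 it was at 28.4 to 32.9 CPM in KO and 24 to 30.7 CPM in WT M0 libraries. KO values were below WT values in LPS and above them in IL-4, and the genotypes overlapped in M0. The differences were 0.15 ± 0.087 in M0, -0.86 ± 0.12 in LPS and 0.97 ± 0.096 in IL-4, and their average was 0.085 ± 0.058 (SE, adjusted p = 0.233).

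Tnip3, a binding partner of the NF-kB inhibitor A20, was 307, 309, 269 and 199 CPM in KO LPS cells, against 103, 126, 132 and 143 CPM in WT LPS cells. It was 8.31, 8.64, 4.15 and 4.56 CPM in KO M0 cells, against 15.5, 12.6, 11.2 and 11.9 CPM in WT M0 cells. KO was the higher genotype in LPS and the lower one in M0, with differences of -0.98 ± 0.23 in M0, 1.01 ± 0.25 in LPS and -0.48 ± 0.21 in IL-4. Bmp2, a secreted bone morphogenetic protein, differed by -0.60 ± 0.15 in M0, 1.23 ± 0.22 in LPS and -0.35 ± 0.15 in IL-4. AW112010 was at 595 to 869 CPM in KO and 412 to 507 CPM in WT LPS libraries and differed by -0.79 ± 0.21 in M0, 0.78 ± 0.19 in LPS and -0.96 ± 0.20 in IL-4. A530064D06Rik differed by -1.10 ± 0.15 in M0, 0.55 ± 0.18 in LPS and -0.65 ± 0.15 in IL-4, and its LPS values overlapped between genotypes. Rn45s, the 45S ribosomal RNA precursor, differed by -1.41 ± 0.44 in LPS and 1.15 ± 0.42 in IL-4, with values of 1027, 1328, 951 and 1090.0 CPM in KO LPS cells, against 1073, 2846, 6616 and 966 CPM in WT LPS cells. In IL-4 Rn45s was 3730.0, 1477, 1135 and 729.8 CPM in KO IL-4 cells, against 710.1, 752, 1049 and 671 CPM in WT IL-4 cells, and the genotypes overlapped in all states. The highest values came from WT LPS library 3 and KO IL-4 library 5. Rn45s lost the difference between LPS and IL-4 without KO numbers 5 and 6 (adjusted p = 0.0688), and this repeated gene shares reads among its copies.

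**Figure D5:**
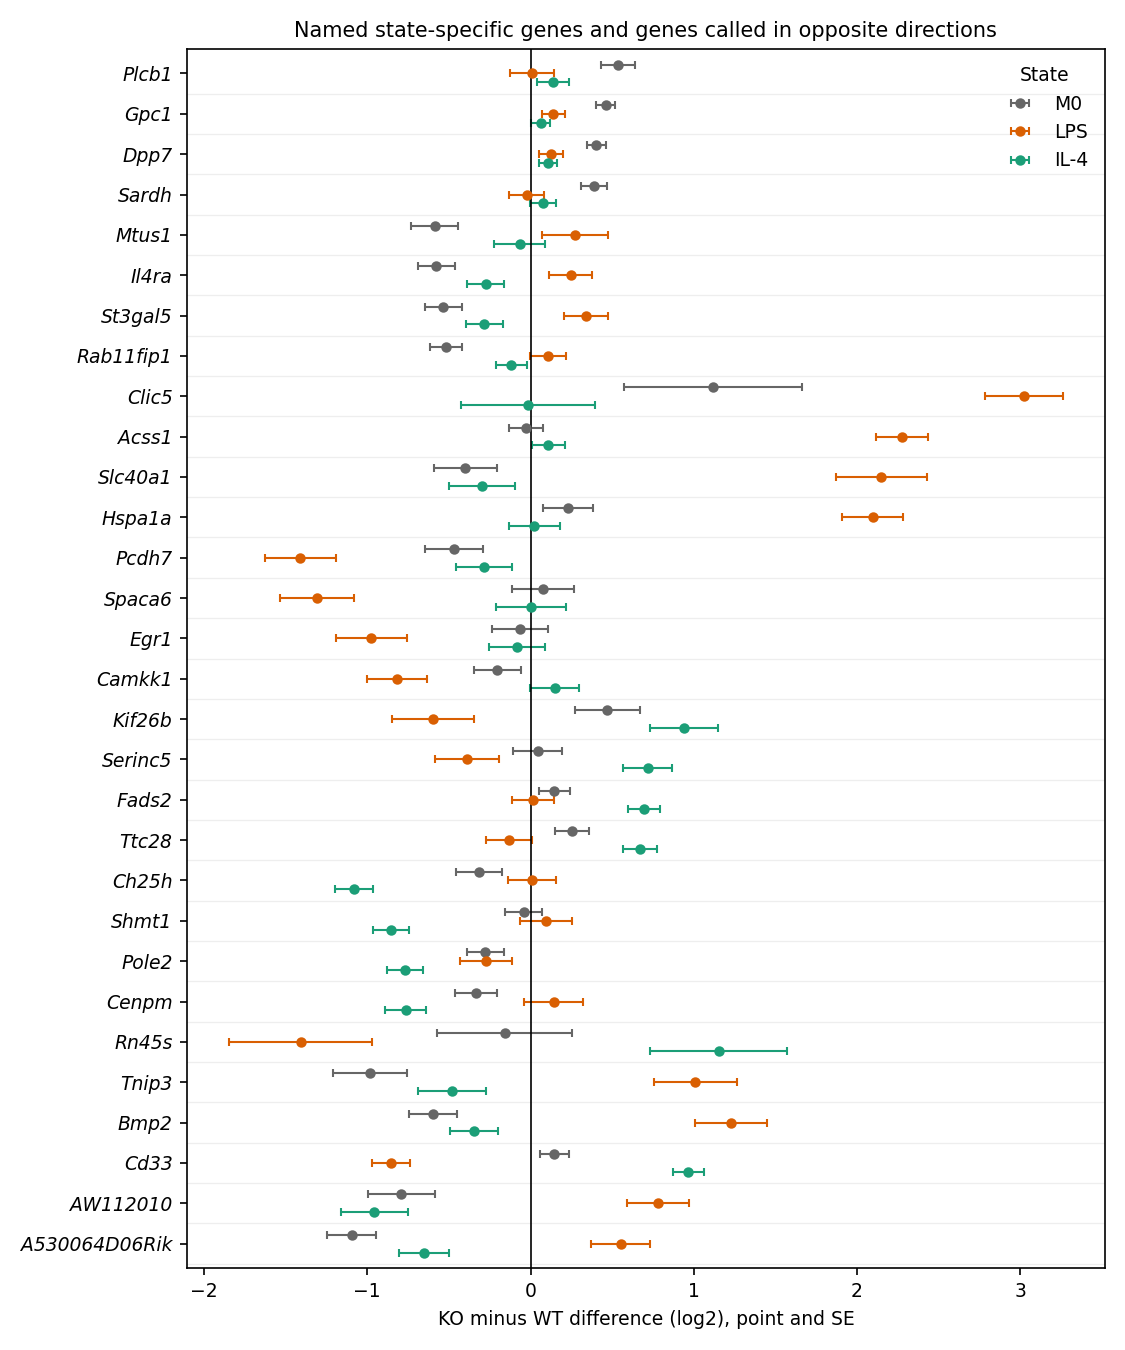
KO minus WT log2 differences with standard errors (horizontal axis) in M0, LPS and IL-4 for 24 named state-specific genes and 6 genes called in opposite directions. The named state lies apart from the other states for each state-specific gene, which follows from the class rule. The gap is widest for Slc40a1, Clic5 and Acss1 in LPS, and Cd33 lies below 0 in LPS and above 0 in IL-4.

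Several immune lists had counts that depended on the state, and so did other lists. The difference varied between states for 13 of 25 ribosome biogenesis genes and 10 of 24 glycolysis and hypoxia genes, against 13.8% of all genes. Over all genes, 11.8% were higher and 10.5% lower in M0, 16.2% and 14.6% in LPS, and 17.9% and 18.2% in IL-4. Of 25 NF-kB subunits and feedback genes, 15 were lower and none higher in KO M0 cells, 9 were lower and 1 higher in IL-4, and 11 were higher and none lower in LPS. On average 6 were higher and 13 lower (3 and 15 without KO numbers 5 and 6, 6 and 8 without KO numbers 7 and 8), 15 varied between states, and none was called with 1 sign in every state. Nfkbia, which encodes IkB alpha, differed by -0.62 ± 0.077 in M0, 0.016 ± 0.088 in LPS and -0.38 ± 0.077 in IL-4, and the subunit Relb by -0.57 ± 0.080 in M0, 0.14 ± 0.096 in LPS and -0.48 ± 0.082 in IL-4. Nfkbib, which encodes IkB beta, differed by 0.14 ± 0.078 in M0, 0.72 ± 0.097 in LPS and 0.13 ± 0.078 in IL-4. The 24 proinflammatory cytokines and chemokines had 10 higher and none lower in LPS, 2 higher and 5 lower in M0, and 2 higher and 5 lower in IL-4, with 6 higher and 7 lower on average. The chemokine Ccl3 differed by 0.11 ± 0.071 in M0, 0.74 ± 0.084 in LPS and -0.031 ± 0.074 in IL-4, the neutrophil chemokine Cxcl2 by -1.25 ± 0.17 in M0, 0.12 ± 0.17 in LPS and -0.93 ± 0.24 in IL-4 and endothelin Edn1 by 0.23 ± 0.15 in M0, 1.34 ± 0.20 in LPS and 0.44 ± 0.14 in IL-4.

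M1 effectors and surface markers had 8 higher and 7 lower of 23 on average, not far from the shares over all genes (26.4% and 23.8%). Without KO numbers 5 and 6 they had 6 higher and 11 lower. The pentraxin Ptx3 and arginase Arg2 were higher in every state (0.88 ± 0.070, adjusted p = 2.57e-10, and 2.19 ± 0.20, adjusted p = 2.95e-09), and the protein C receptor Procr averaged 0.65 ± 0.084 (SE, adjusted p = 6.02e-07). Of 31 IL-4 markers, 5 were higher and 9 lower on average. In IL-4 itself 2 were higher and 14 lower, against 17.9% and 18.2% of all genes. The scavenger receptor Msr1 and the kinase Matk were lower in every state, with averages of -0.49 ± 0.057 (SE, adjusted p = 1.33e-07) and -0.76 ± 0.092 (SE, adjusted p = 2.41e-07). The cyclooxygenase Ptgs1 averaged -0.90 ± 0.073 (SE, adjusted p = 4.20e-10), with -1.47 ± 0.11 in M0, -0.29 ± 0.16 in LPS and -0.93 ± 0.10 in IL-4, and with the 8 number means over 3 states it was 0.41 (adjusted p = 0.722).

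Of 40 type I interferon-stimulated genes, 14 were lower and 2 higher in KO M0 cells, 18 were higher and none lower in LPS, and 10 were higher, not far from the share over all genes, and none lower in IL-4. On average 15 were higher and 1 lower, and the balance moved with the KO libraries: without KO numbers 5 and 6 it was 6 higher and 17 lower, and without KO numbers 7 and 8 it was 25 higher and 1 lower. The exonuclease Isg20 and the ubiquitin ligase Trim25 were higher in every state (0.48 ± 0.049, adjusted p = 1.68e-08, and 0.31 ± 0.039, adjusted p = 5.38e-07). The GTPase Irgm1 averaged 0.24 ± 0.050 (SE, adjusted p = 0.000339), with -0.043 ± 0.082 in M0, 0.74 ± 0.093 in LPS and 0.0098 ± 0.084 in IL-4. Over M0 and IL-4 alone Irgm1 averaged -0.017 (adjusted p = 0.84). NRF2 targets and redox defence genes had 13 higher and none lower of 24 in LPS, 1 higher and 8 lower in M0, and 2 higher and 9 lower in IL-4, for 7 higher and 6 lower on average (5 and 9 without KO numbers 5 and 6, 10 and 6 without KO numbers 7 and 8). Gpx1, a glutathione peroxidase, was higher in every state at 0.49 ± 0.038 (SE, adjusted p = 2.57e-10), while Srxn1 and Me1 differed by 0.74 ± 0.067 and 0.55 ± 0.072 in LPS. Heat shock proteins and cytosolic chaperones had 5 higher and 7 lower of 17 on average, against 26.4% and 23.8% of all genes. Dnaja1 differed by 0.17 ± 0.059 in M0, 0.62 ± 0.069 in LPS and 0.041 ± 0.059 in IL-4. Averaged calls ended over M0 and IL-4 alone for Ccl3, Irgm1, Srxn1, Hspa1a, Hspa1b and Fas (adjusted p from 0.0785 to 0.84). With the 8 number means over 3 states they ended for Plk1, Mcm4, Relb, Nfkbib, Ccl3, Cxcl2, Edn1, Arg2, Matk, Ptgs1, Dcstamp, Ocstamp, Mvk, Hsd17b7, Sdf2l1, Hspa1a, Rrp9, Utp15, Fas, Tgfb2, Id1, Cdh5 and Egfl7 (adjusted p from 0.0513 to 0.937).

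Markers of other cells moved with genotype, and their part in the results was not tested. Of 10 stromal cell markers, all detected in every group, 8 were higher in KO and none lower, against 26.4% and 23.8% of all genes. Of the same markers 5 were higher in every state, against 4.06%. Their summed level was 16200 to 21300 CPM in KO and 11400 to 13200 CPM in WT M0 libraries, 17600 to 20100 CPM in KO and 12200 to 15400 CPM in WT LPS libraries, and 11700 to 15300 CPM in KO and 7960 to 8550 CPM in WT IL-4 libraries. The collagen genes Col1a2 and Col3a1 averaged 0.60 ± 0.057 (SE, adjusted p = 5.02e-09) and 0.63 ± 0.063 (SE, adjusted p = 1.42e-08), and the proteoglycan gene Lum, with a mean under 1 CPM in each group, averaged 2.45 ± 0.26 (SE, adjusted p = 3.05e-08). Collagen genes made up most of the sum. These values stand beside the higher matrix genes Fndc1, Col8a2 and Ibsp.

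Of 8 endothelial markers, 6 were higher and none lower, against 26.4% and 23.8% of all genes. Their sum was 26.4 to 85.0 CPM in KO and 16.7 to 21.7 CPM in WT M0 libraries, 87.8 to 138 CPM in KO and 20.6 to 50.5 CPM in WT LPS libraries, and 20.1 to 49.0 CPM in KO and 21.1 to 25.1 CPM in WT IL-4 libraries. Without KO numbers 7 and 8 the count was 2 higher and 2 lower. It was 3 higher and 0 lower with the replicate block, and 2 and 0 with number means over M0 and IL-4. The receptor Kdr averaged 1.14 ± 0.14 (SE, adjusted p = 3.06e-07), Egfl7 1.5 ± 0.15 (SE, adjusted p = 8.89e-09) and the cadherin Cdh5 1.33 ± 0.33 (SE, adjusted p = 0.00164), which without KO numbers 7 and 8 averaged 0.053 (adjusted p = 0.704). Macrophage markers had 3 higher and 4 lower of 7. Neutrophil and precursor markers had 2 higher and 3 lower of 10, B cell markers 1 and 1 of 3, dendritic cell markers 2 and 1 of 6, and mast cell and basophil markers 1 and 2 of 4. Erythroid markers had 1 higher of 3, megakaryocyte markers 2 lower of 4, and T and NK cell markers 0 of 2. Of the sex-linked genes 1 was tested and not called on average.

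The chromosomal position of the genes called in every state was also described. Of 14693 tested genes, 14661 were matched to RefSeq positions. The share of genes called with 1 sign in every state was 8.35% over all of them and ranged over chromosomes from 5.78% on chromosome 18 to 11.1% on chromosome 10.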

How the data were processed

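The sources used here name no library kit, strand setting or gene annotation. The authors deposited 1 table of whole-number counts per gene symbol for each of the 24 libraries. Reads were aligned with TopHat2 2.1.0 and counted with HTSeq 0.9.1 against mm10 (GRCm38), per the submitters' processing notes. Without a stated strand setting, reads of overlapping and antisense genes cannot be told apart. The 5 summary lines of HTSeq were left out of totals and tests: reads without a feature were 3.11% to 3.59% of a library, reads without a unique alignment 3.6% to 4.5% and ambiguous reads 1.91% to 2.25%.

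Counts of 24421 symbols were filtered by group with edgeR 4.0.16 (R 4.3.3), which left 14693, and scaled by TMM. A model with 1 coefficient per group (18 residual degrees of freedom) was tested by quasi-likelihood. The averaged contrast was the mean of the 3 KO minus WT differences, and others were each state, each state against the mean of the other states, each pair of states and the variation over states. P-values were adjusted by the Benjamini-Hochberg method over all genes, with a threshold of 0.05. Values are TMM-scaled counts per 1000000 (CPM), and differences are log2 with standard errors (SE). A count of 0 is given an upper limit of 3 counts. The fit was also run on simulated counts, with no outcome given here. The simulated libraries were independent, so that run could not show the effect of recurring label numbers. Number means were log2 CPM averaged over the states for each label number and tested with limma 3.58.1, and DESeq2 1.42.0 was run as an alternative. The replicate block was a limma-voom fit with label number as a random block. For Ogt and Mgea5 the number means were also tested by exact permutation.

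Ogt, Mgea5, Rps6kb1 and Lyz2 were always named. Others were named by size among called genes of at least 5 CPM in the higher genotype: 10 per direction called in every state and on average with and without the replicate block, 4 per direction and state that were state-specific with 4 KO and 4 WT values apart, 6 called in opposite directions, and up to 3 called members with the smallest adjusted p in each of 35 gene lists. Genes, lists and tests were chosen with earlier results of these data known. Nupr1 and Ube2c were shown for their promoters after their values were seen. The other alternatives were DESeq2's size factors in edgeR (RLE), no filter on low counts, omission of each label number, of the 3 shallow libraries or of 2 KO numbers, and the average of M0 and IL-4 alone. Some items are not reported here.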

Additional observations from a re-analysis of the deposited data

Results flagged for a closer look

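Single libraries stood apart from the other 3 of their group for 39 of 738 gene and group combinations examined in 123 named genes, by a test of the gap to the nearest value against the range, and chance alone would mark about 1 in 20. Of the 39, 29 lay in the 3 shallow LPS libraries. KO LPS library 7 stood apart at 65.8 CPM for Rps6kb1, 23.9 CPM for Padi4, 5.98 CPM for Col8a2, 12 CPM for Egr1, 12 CPM for Shmt1 and 29.9 CPM for Trib3. The same library was at 41.9 CPM for Uhrf1, 35.9 CPM for Hsd17b7, 35.9 CPM for Ndufv1, 12 CPM for Fh1, 508 CPM for Dnaja1 and 12 CPM for Utp15. The same library was at 95.7 CPM for Fas. It had 0 counts for H2-Ke6, Sardh, Camkk1, Pole2 and Plk1, which allows up to 17.9 CPM. WT LPS library 1 stood apart at 30.9 CPM for Ccr1, 10.3 CPM for G530011O06Rik, 25.8 CPM for Cd33 and 36.1 CPM for Adamts1. It had 0 counts for Slc40a1 and A530064D06Rik, which allows up to 15.5 CPM. WT LPS library 2 stood apart at 15.7 CPM for Rps6kb1, 20.9 CPM for Aurkb, 152 CPM for Ero1l, 26.1 CPM for Rrp9 and 47.1 CPM for Plk2. Cx3cr1 was at 46.1 CPM in KO LPS library 8, Col1a2 was at 6528 CPM in KO LPS library 8 and Ccr1 was at 28 CPM in KO M0 library 5. Ptx3 was at 166 CPM in WT IL-4 library 1, Slc1a4 was at 32.2 CPM in WT IL-4 library 3 and Kif26b was at 14.1 CPM in WT M0 library 1. Bmp2 was at 15.8 CPM in WT M0 library 1, Pik3cg was at 74.1 CPM in WT M0 library 2 and Fas was at 7.72 CPM in WT M0 library 3. Kdr was at 3.15 CPM in WT M0 library 3.

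The KO minus WT difference itself varied between M0, LPS and IL-4 for 73 of the 123 named genes (edgeR test with 2 degrees of freedom, adjusted p over all genes), and each value is given here. Over all genes tested the share was 13.8%. The state-specific and opposite genes were chosen by a called difference between states, so the count of 73 follows in part from that choice. Among genes called with 1 sign in every state and Lyz2 the adjusted p was 0.000161 for Lyz2, 0.0258 for Pcp4l1, 0.000724 for Cd5l, 0.0428 for Prokr1, 0.0242 for Mmp9 and 0.00185 for Gpr84. It was 0.0254 for Cx3cr1 and 0.0302 for Ccr1. Among M0-specific genes the adjusted p was 0.00362 for Gpc1, 0.0201 for Dpp7, 0.0489 for Sardh, 0.0389 for Mtus1, 0.00596 for Il4ra and 0.00359 for St3gal5. It was 0.0125 for Rab11fip1. Among LPS-specific genes the adjusted p was 0.000279 for Clic5, 3.65e-08 for Acss1, 2.75e-05 for Slc40a1, 5.61e-06 for Hspa1a, 0.0163 for Pcdh7 and 0.0036 for Spaca6. It was 0.0404 for Egr1 and 0.0209 for Camkk1. Among IL-4-specific genes the adjusted p was 0.00603 for Kif26b, 0.00708 for Serinc5, 0.00514 for Fads2, 0.00655 for Ttc28, 0.00060 for Ch25h and 0.000708 for Shmt1. It was 0.0172 for Cenpm. Among genes called in opposite directions the adjusted p was 0.0157 for Rn45s, 0.000716 for Tnip3, 0.000139 for Bmp2, 8.33e-08 for Cd33, 0.000162 for AW112010 and 0.000108 for A530064D06Rik. Among members of the immune, redox, chaperone and protease lists the adjusted p was 0.000708 for Relb, 0.00177 for Nfkbia, 0.0027 for Nfkbib, 0.000102 for Ccl3, 0.00098 for Cxcl2 and 0.00677 for Edn1. It was 0.00439 for Ptx3, 0.00108 for Procr, 0.0347 for Trim25, 0.000162 for Irgm1, 0.000495 for Ptgs1 and 0.00995 for Dcstamp. It was 3.12e-05 for Ocstamp, 3.60e-06 for Mmp19, 9.83e-06 for Srxn1, 0.0022 for Me1, 5.27e-05 for Hspa1b and 0.000275 for Dnaja1. Among members of the other lists the adjusted p was 0.00705 for Vldlr, 0.0413 for Cdc20, 0.0249 for Mcm4, 0.00846 for Uhrf1, 1.61e-05 for Abcg1 and 0.00937 for Pltp. It was 0.0472 for Pfkfb3, 0.000252 for Ero1l, 0.0161 for Fh1, 0.00084 for Ctsh, 0.0297 for Gusb and 0.0036 for Atp6v1a. It was 0.0405 for Hyou1, 0.00726 for Rrp9, 0.00651 for Bop1, 2.63e-05 for Fas, 0.000976 for Plk2 and 0.0175 for Pik3cg. It was 0.0331 for Tgfb2.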

How the results depend on the processing

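Averaged calls kept their direction with DESeq2's size factors, without a filter on low counts and without the 3 shallow libraries for the named genes, and the size factors shifted the median difference of all genes by at most 0.0213 log2. Of 2804 alternative values for 165 results on named genes, 2609 kept direction and side of the threshold, 191 kept only direction and 4 turned round. Those 4 were Irgm1 over M0 and IL-4 alone (-0.017) and with number means over M0 and IL-4 (-0.027), and Ptgs1 (0.41) and Hsd17b7 (0.035) with number means over 3 states, and the cause was not tested. DESeq2 called 2105 genes lower on average, 314 higher and 210 lower in every state, 1090 varying between states, 8 higher and 27 lower M0-specific, 130 lower LPS-specific, 41 higher and 63 lower IL-4-specific and 107 opposite genes. Without the 3 shallow libraries 175 lower IL-4-specific genes were called. Without KO numbers 5 and 6 the M0-specific genes were 50 higher and 130 lower, and the higher IL-4-specific genes 131. Without KO numbers 7 and 8 the LPS-specific genes were 894 higher and 481 lower, and the lower IL-4-specific genes 67. Genes called with 1 sign in both M0 and IL-4 numbered 1231 higher and 1077 lower. Number means over 3 states called 477 higher and 344 lower genes, while those over M0 and IL-4, which were added after seeing the data, called 2618 and 2904.

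Without each label number in turn, the averaged contrast called 2758 to 3693 higher and 3344 to 3861 lower genes, the class of every state held 272 to 561 higher and 472 to 644 lower genes, and 834 to 2037 genes varied between states. M0-specific genes numbered 9 to 31 higher and 17 to 52 lower, LPS-specific genes 261 to 725 and 150 to 456, IL-4-specific genes 36 to 71 and 23 to 91, and opposite genes 117 to 296.

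Label numbers recur in the 3 states within a genotype, and the deviations of same-numbered libraries from their group means correlated by over 0.1 in 7 of 8 pairs of M0 with IL-4 (range -0.16 to 0.79), 4 of 5 deep pairs of M0 with LPS (0.0078 to 0.31) and 4 of 5 deep pairs of LPS with IL-4 (0.078 to 0.4). With a shallow library, whose depth limits any correlation, it was 1 of 3 (-0.2 to 0.12) and 0 of 3 (-0.082 to 0.063). Most deep pairs thus deviated together, but not every one, and no label says what a number marks, so the libraries were not treated as paired. Where they do deviate together, p-values of the averaged contrast may be too small and those of differences between states too large. With the replicate block the averaged contrast called 3100 higher and 3142 lower genes and the class of every state held 654 and 753. The block gave 3936 genes varying between states (3957 as a fixed block), 80 higher and 74 lower M0-specific genes, and 166 higher and 304 lower IL-4-specific genes. With the block the averaged call of Rps6kb1 ended (adjusted p = 0.0595), and the Ogt difference varied between states (adjusted p = 0.0492, against 0.0531 as a fixed block). A second state was also called with the block for Dpp7 (IL-4, adjusted p = 0.0425), Il4ra (LPS 0.0447 and IL-4 0.0209), St3gal5 (LPS 0.0195), Slc40a1 (M0 0.0229), Pcdh7 (M0 0.0193), Kif26b (LPS 0.0459), Ttc28 (M0 0.0356) and Cenpm (M0 0.0489), which are then no longer specific to 1 state. Depth limits the LPS comparison most, since genes under 15.5 CPM are not resolved in 3 of its 8 libraries.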
